A study of Homo sapiens with 4 samples.

Results

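The genes described are 10 human genes of cell-to-cell junctions: the connexins GJA1, GJB1 and GJB2, the claudins CLDN1, CLDN2 and CLDN14, the tight junction genes OCLN and TJP1, and the cadherins CDH1 and CDH2. They were picked by name from the 32479 Ensembl genes of the deposited table, and all 10 had a row in each of the 4 libraries. The set was drawn up with levels in these libraries already known, so the values below are a description and carry no test. RNA came from 2 human liver cancer cell lines without genetic modification, HepG2 (derived from a hepatoblastoma) and PLC/PRF/5 (a hepatoma line with integrated hepatitis B virus DNA). In each line 1 culture received 20 uM PF-429242 for 24 h and 1 untreated culture was taken as its control at 24 h. PF-429242 blocks site-1 protease, the Golgi protease that makes the first cut in the release of the SREBP transcription factors from the membrane. Every group is thus a single library, and no difference between libraries has a replicate check.

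Connexins form gap junctions: subunits assemble into a hemichannel in one cell that docks with one of its neighbour and lets ions and small metabolites pass. Claudins are the strands of the tight junction, which seals the bile canaliculus from the blood side of the hepatocyte, and occludin (OCLN) lies in the same strands. TJP1, also called ZO-1, is the scaffold that ties them to actin. Cadherins hold neighbouring cells together through calcium-dependent contacts, and hepatocytes carry both E-cadherin (CDH1) and N-cadherin (CDH2). GJB1 (connexin 32) is the main connexin of hepatocytes, with GJB2 (connexin 26) beside it, whereas GJA1 (connexin 43) is typical of other liver cells.

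The libraries held between 16722204 and 21387301 counted fragments. Levels are in FPKM, fragments scaled to gene length and to the library's total, and 95% intervals cover counting error only. As a check of the drug, HMGCS1, an enzyme of cholesterol synthesis, had 5.18 FPKM in treated HepG2 and 38.0 FPKM in control HepG2, and 8.29 FPKM in treated PLC/PRF/5 and 28.1 FPKM in control PLC/PRF/5. The treated PLC/PRF/5 library stood apart in the mitochondrial and RRP genes. In it the mitochondrial ribosomal RNA MT-RNR2 had 2612 FPKM, against 14380 to 27706 FPKM in the other libraries. The mitochondrial gene MT-CO1 was instead higher in it, at 42517 FPKM, against 18246 to 28056 FPKM. In the same library 8 genes with symbols starting in RRP summed to 11.6 FPKM, against 76.4 to 103 FPKM. With 1 library per group it cannot be left out, and its part in the PLC/PRF/5 results was not tested. Mitochondrial genes took 27.6% and 28.2% of the fragments in treated HepG2 and treated PLC/PRF/5, and 16.6% and 21.3% in their controls. All 7 hepatocyte markers (among them ALB and HNF4A) reached 1 FPKM in every library, summing to between 2548 and 6375 FPKM. Of the markers of other cells that had a row, 4 endothelial genes summed to between 1.07 and 1.43 FPKM, 5 fibroblast or stellate cell genes to between 1.86 and 6.42 FPKM and 3 blood cell genes to between 0.142 and 0.726 FPKM. Of 5 bile duct markers, which summed to between 46.4 and 154 FPKM, SOX9, EPCAM and KRT19 were above 10 FPKM in all 4 libraries, and KRT7 was at most 0.339 FPKM. CFTR had 0 fragments in HepG2, treated and control alike, but reached 1 FPKM in both PLC/PRF/5 libraries. Thus 4 of the 5 reached 1 FPKM in PLC/PRF/5 and 3 in HepG2.

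The results turn on 4 members: CLDN1, which was lower with the drug in both lines, GJA1 and CDH2, which set PLC/PRF/5 apart from HepG2, and GJB1, which the lines share. Their promoters are shown as the RefSeq windows on GRCh38.p14 from 250 bases before the transcript start to 50 bases after it, on the coding strand, 5′ to 3′. Capitals mark CpG dinucleotides, the sites where vertebrate DNA is methylated. For CDH2, which has a second window (chr18:28036592-28036891) with 4 CpG, the window of the upstream start is shown. The printed windows are CpG-rich for CLDN1 (31 CpG) and CDH2 (23), and CpG-poor for GJA1 (3) and GJB1 (2), against a median of 14 over all 35116 windows of the table.
CLDN1, chr3:190322397-190322696, minus strand: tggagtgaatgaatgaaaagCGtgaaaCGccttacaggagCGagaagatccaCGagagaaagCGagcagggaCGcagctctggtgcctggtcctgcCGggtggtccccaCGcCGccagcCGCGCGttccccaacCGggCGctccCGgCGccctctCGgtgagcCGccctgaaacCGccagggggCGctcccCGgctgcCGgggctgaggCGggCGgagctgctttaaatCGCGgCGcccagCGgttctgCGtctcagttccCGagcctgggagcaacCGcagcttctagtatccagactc
CDH2, chr18:28177081-28177380, minus strand: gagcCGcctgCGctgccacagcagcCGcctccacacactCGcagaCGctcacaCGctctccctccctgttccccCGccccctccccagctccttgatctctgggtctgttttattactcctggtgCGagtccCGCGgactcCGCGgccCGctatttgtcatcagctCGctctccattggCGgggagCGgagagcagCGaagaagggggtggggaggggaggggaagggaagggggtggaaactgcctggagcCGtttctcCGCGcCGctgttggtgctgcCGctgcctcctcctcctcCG
GJA1, chr6:121435396-121435695, plus strand: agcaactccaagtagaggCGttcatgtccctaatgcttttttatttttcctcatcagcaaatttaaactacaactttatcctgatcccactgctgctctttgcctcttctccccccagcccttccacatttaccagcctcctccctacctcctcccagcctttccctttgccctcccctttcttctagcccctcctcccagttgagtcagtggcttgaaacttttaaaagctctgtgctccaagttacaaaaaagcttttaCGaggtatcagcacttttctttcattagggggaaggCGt
GJB1, chrX:71214989-71215288, plus strand: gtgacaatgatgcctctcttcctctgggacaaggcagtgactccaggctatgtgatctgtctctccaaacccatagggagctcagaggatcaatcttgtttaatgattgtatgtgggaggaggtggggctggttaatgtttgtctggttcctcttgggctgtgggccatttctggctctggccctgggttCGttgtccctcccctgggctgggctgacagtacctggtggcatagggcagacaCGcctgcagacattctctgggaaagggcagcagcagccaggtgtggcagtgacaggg

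RefSeq windows were found for 9 of the 10 members, 17 windows in all, since some genes have several starts. CDH1 had none in the table. The core of the sterol regulatory element, TCACNCCAC, the letters to which SREBPs bind, was in 0 of the 17 windows on either strand, and in 1.13% of all windows. The HNF4A word CAAAGTCCA was likewise in 0 of 17, and in 0.384% of all windows. The E-box CAGGTG, to which the repressors SNAI1 and ZEB1 bind, was in 7 of 17 on one strand or the other, and in 20.6% of all windows. Of the 4 windows printed above, only that of GJB1 held it, 30 bases after the start. Only the E-box was found in these windows, so overlap between different words could not arise. A match or its absence describes the letters alone.

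The first question was which members differ after site-1 protease inhibition in HepG2. CLDN1 was lower in treated HepG2 than in its control, at close to a 2-fold difference, and the other members differed less or were too low to tell. Counting was done on log2(FPKM + 1), for genes that reached 1 FPKM in one library of the pair or both, and 0 of the 7 members that qualified were 2-fold lower or higher. The background in HepG2 was 2.14% of 12347 genes 2-fold lower and 1.00% 2-fold higher, 3.14% together, and 0.651% and 0.0701% of the 9992 protein-coding genes. At 1.5-fold, 1 of 7 members was lower, against 5.54% of all genes and 2.53% of protein-coding genes, and 0 were higher, against 2.33% of all genes (7.87% in both directions). The median log2 ratio of the 7 members was -0.21, against -0.17 for all genes, so the members as a group lay near the shift that all genes shared. In cultures measured in bulk, fewer cells with a transcript and less of it per cell cannot be told apart.

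The same question in PLC/PRF/5 gave a somewhat broader picture. CLDN1, the N-cadherin gene CDH2 and the connexin 43 gene GJA1 were each lower by more than 1.5-fold in treated PLC/PRF/5, and GJB1 by slightly less. Again 0 of 7 members were 2-fold lower or higher, against 1.82% of 13144 genes lower, 1.48% higher and 3.29% in all, and 0.377% and 0.170% of 10611 protein-coding genes. At 1.5-fold, 3 of 7 members were lower, against 5.07% of all genes and 2.41% of protein-coding genes, and 0 were higher, against 4.25% of all genes (9.32% in both directions). GJA1, at -0.55 under median-of-ratios scaling and with nuclear totals, was then short of 1.5-fold, which left 2 of 7. All 7 were below 0, with a median log2 ratio of -0.47, against -0.13 for all genes, of which 9319 were below 0.

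**Figure D1:**
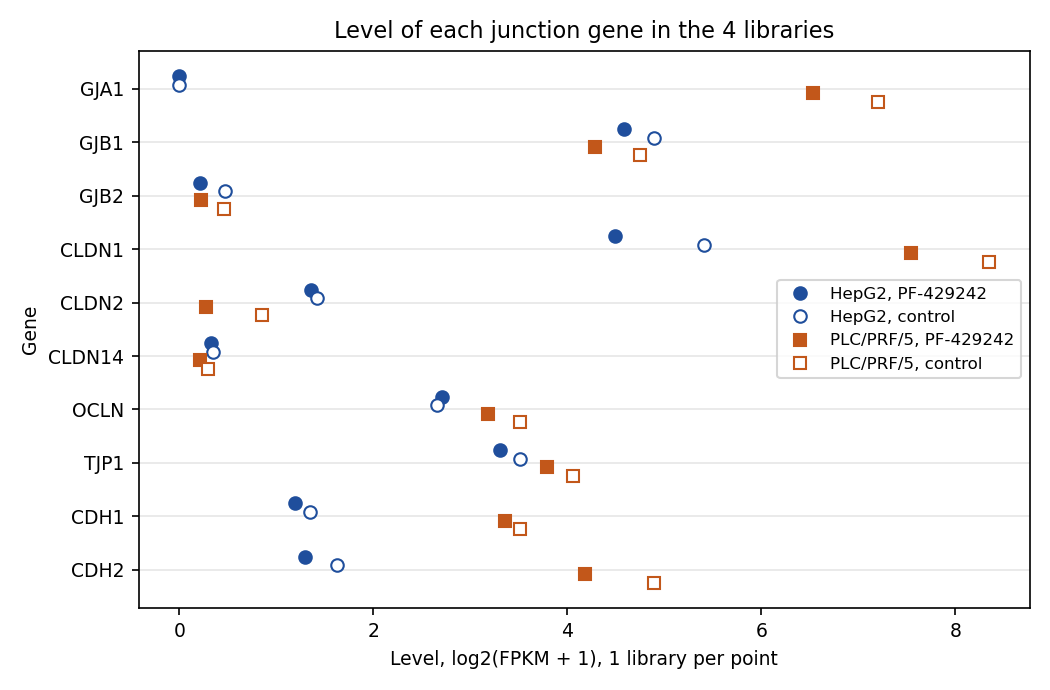
Level of the 10 genes on the log2(FPKM + 1) scale, 1 point per library, filled for PF-429242 and open for control, circles for HepG2 and squares for PLC/PRF/5. GJA1 lies at 0 in both HepG2 libraries and near 7 in PLC/PRF/5, while GJB1 lies between 4 and 5 in all 4.

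Among the connexins, GJB1 was the one that both lines expressed. GJB1 (chromosome X, 71215194 to 71225516, plus strand, GENCODE 29 on GRCh38) had 22.9 FPKM in treated HepG2 and 28.8 FPKM in control HepG2, and 18.5 FPKM in treated PLC/PRF/5 and 25.9 FPKM in control PLC/PRF/5. Both treated libraries were below their own controls, and all 4 lay within a narrow range. The ratio of treated to control was 0.796 in HepG2 (95% interval 0.733 to 0.863) and 0.713 in PLC/PRF/5 (0.652 to 0.779). On the log2(FPKM + 1) scale these were -0.32 and -0.47, of which -0.14 and -0.34 remained after subtracting the median of all genes. The difference between the lines, in log2 of the plain ratio, was 0.16 (-0.01 to 0.33), an interval that includes 0 as deposited. It depended on the scaling. On log2(FPKM + 1) it was 0.15, and 0.24 under median-of-ratios scaling and 0.22 with nuclear totals.

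GJA1 (chromosome 6, 121435577 to 121449727, plus strand) was detected in one line only. It had 0 fragments in both HepG2 libraries, and 91.4 FPKM in treated PLC/PRF/5 and 146 FPKM in control PLC/PRF/5. A count of 0 allows up to 3 fragments, so control HepG2 was at least 2787-fold lower than control PLC/PRF/5. Within PLC/PRF/5 the treated library was lower, at a ratio of 0.624 (0.604 to 0.645), from 5297 fragments in treated cells and 10693 in control cells. Its log2 ratio was -0.67, and -0.55 relative to all genes. GJA1 ranked 182 by level among 16709 protein-coding genes in treated PLC/PRF/5 and 118 in control PLC/PRF/5. A processed pseudogene, GJA1P1, is annotated for this gene and had no row in the table.

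GJB2 (chromosome 13, 20187463 to 20193010, minus strand) was near the lower limit of what the depth could show. It had 0.159 FPKM in treated HepG2 and 0.387 FPKM in control HepG2, and 0.167 FPKM in treated PLC/PRF/5 and 0.378 FPKM in control PLC/PRF/5. These stand for 8, 16, 7 and 20 fragments. The 2 treated libraries were the lower ones, at ratios of 0.411 (0.152 to 1.02) and 0.441 (0.157 to 1.09), intervals that include 1, so a difference was not detectable at this depth.

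The make-up of the connexin family therefore differed between the lines more than with the drug. Over the 15 connexin genes with a row, summed levels were 24.3 FPKM in treated HepG2 and 31.3 FPKM in control HepG2, and 114 FPKM in treated PLC/PRF/5 and 180 FPKM in control PLC/PRF/5. GJB1 made up 94.2% and 92.1% of this sum in treated and control HepG2, and 16.2% and 14.4% in treated and control PLC/PRF/5. GJA1 made up 80.0% of it in treated PLC/PRF/5 and 81.5% in control PLC/PRF/5. Within PLC/PRF/5 the GJA1 level was 4.95 times that of GJB1 in treated cells and 5.66 times in control cells.

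Of the claudins, CLDN1 was the most abundant in every library and the member with the lowest treated-to-control log2 ratio of (FPKM + 1) in both lines. On the plain ratio GJB2 was lower still in both lines, and CLDN2 in PLC/PRF/5, both on few fragments. Claudin-1 is a core strand protein of hepatocyte tight junctions and an entry factor for hepatitis C virus. CLDN1 (chromosome 3, 190305701 to 190322475, minus strand) had 21.5 FPKM in treated HepG2 and 41.4 FPKM in control HepG2. It had 185 FPKM in treated PLC/PRF/5 and 325 FPKM in control PLC/PRF/5. Both treated libraries were clearly below their controls, and both PLC/PRF/5 libraries were above both HepG2 libraries.

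The CLDN1 ratio was 0.519 in HepG2 (0.487 to 0.553, 1586 and 2510 fragments) and 0.569 in PLC/PRF/5 (0.557 to 0.582, 11415 and 25255 fragments). The log2 ratios were -0.91 and -0.81, and -0.74 and -0.68 relative to all genes. In HepG2 it ranked 75 from the lowest log2 ratio among 9992 protein-coding genes, and in PLC/PRF/5 81 among 10611. On the plain scale the difference between the lines was -0.13 (-0.23 to -0.04), a slightly lower ratio in HepG2 as deposited. It depended on the scaling. On log2(FPKM + 1) it was -0.10, but -0.02 under median-of-ratios scaling and -0.04 with nuclear totals. CLDN1 ranked 77 by level among protein-coding genes in treated PLC/PRF/5 and 43 in control PLC/PRF/5, and 1277 and 658 in treated and control HepG2.

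CLDN2 and CLDN14 were low. CLDN2 (chromosome X, 106900164 to 106930861, plus strand), which forms cation-permeable pores in leaky epithelia, had 1.56 FPKM in treated HepG2 and 1.67 FPKM in control HepG2. In PLC/PRF/5 it had 0.207 FPKM in treated cells and 0.809 FPKM in control cells. The HepG2 libraries were alike, at a ratio of 0.934 (0.702 to 1.24), whereas treated PLC/PRF/5 was lower than its control at 0.256 (0.125 to 0.482), on 12 and 59 fragments. The lines differed by 1.87 on the plain log2 scale (0.89 to 2.85), but both PLC/PRF/5 libraries were below 1 FPKM and outside the counts above. A part of its exons, 10.0% of their length, overlaps exons of RIPPLY1 on the other strand, which had at most 0.150 FPKM in any library. The strand setting of library and counting was not stated in the labels.

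CLDN14 (chromosome 21, 36460621 to 36576569, minus strand), a claudin of the inner ear and kidney, had 0.255 FPKM in treated HepG2 and 0.269 FPKM in control HepG2, and 0.163 FPKM in treated PLC/PRF/5 and 0.227 FPKM in control PLC/PRF/5. These are 15, 13, 8 and 14 fragments, and the ratios of 0.948 (0.421 to 2.17) and 0.720 (0.262 to 1.84) have intervals that include 1. No difference was detectable in this gene at this depth.

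**Figure D2:**
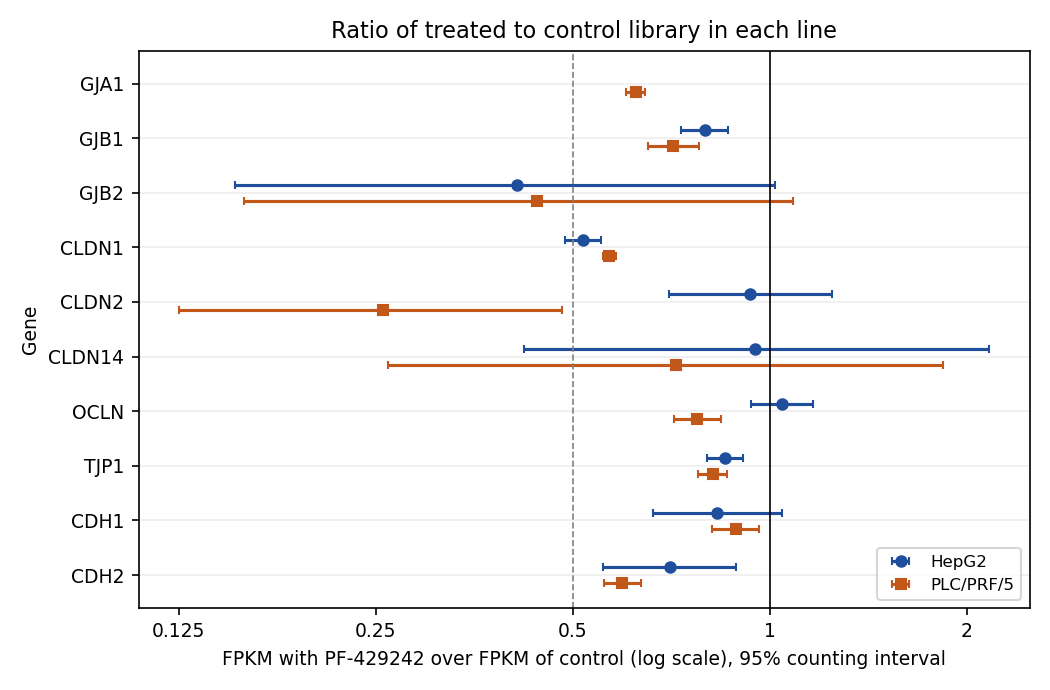
Plain ratio of FPKM with PF-429242 over control for each gene on a log2-spaced axis, circles for HepG2 and squares for PLC/PRF/5, with 95% exact binomial counting intervals and a dashed line at 0.5. CLDN1 lies close to 0.5 in both lines with narrow intervals, GJB2 and CLDN14 have wide intervals that cross 1, and GJA1 has no HepG2 point because both HepG2 libraries had 0 fragments.

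Summed over the 19 claudins CLDN1 to CLDN24 with a row, the family had 61.4 FPKM in treated HepG2 and 99.9 FPKM in control HepG2, and 209 FPKM in treated PLC/PRF/5 and 350 FPKM in control PLC/PRF/5. CLDN1 made up 88.8% and 93.1% of this sum in treated and control PLC/PRF/5, but only 35.0% and 41.4% in treated and control HepG2. There the fetal claudin gene CLDN6 held the second place, with 14.3 FPKM in treated HepG2 and 28.3 FPKM in control HepG2, a ratio of 0.504 (0.450 to 0.563) much like that of CLDN1. In PLC/PRF/5 CLDN6 had 2.03 FPKM in treated cells and 2.23 FPKM in control cells, at a ratio of 0.910 (0.642 to 1.28). The CLDN12 share was 15.9% and 10.9% in treated and control HepG2, and its level of 9.78 and 10.9 FPKM differed little.

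OCLN and TJP1 were at moderate levels in both lines. OCLN (chromosome 5, 69492292 to 69558104, plus strand) had 5.55 FPKM in treated HepG2 and 5.32 FPKM in control HepG2, and 8.07 FPKM in treated PLC/PRF/5 and 10.4 FPKM in control PLC/PRF/5. As deposited, the HepG2 libraries overlapped within counting error, at a ratio of 1.04 (0.937 to 1.16), and treated PLC/PRF/5 was lower, at 0.775 (0.713 to 0.841). OCLN was the only member with a log2 ratio above 0 in HepG2 as deposited, at 0.05. That ratio became -0.25 when FPKM were rescaled to equal sums. It was 0.23 under median-of-ratios scaling and 0.23 with nuclear totals. Each of these alternatives moved beyond the counting interval. The difference between the lines was 0.43 on the plain log2 scale (0.24 to 0.63). A partial copy of the gene, OCLNP1, had 0.651 FPKM in treated HepG2 and 0.881 FPKM in control HepG2, and 0.694 FPKM in treated PLC/PRF/5 and 1.51 FPKM in control PLC/PRF/5. The labels do not say how reads were split between gene and copy, so the OCLN values are uncertain to that extent.

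TJP1 (chromosome 15, 29699367 to 29968865, minus strand) had 8.91 FPKM in treated HepG2 and 10.4 FPKM in control HepG2, and 12.8 FPKM in treated PLC/PRF/5 and 15.7 FPKM in control PLC/PRF/5. Both treated libraries were a little lower, at ratios of 0.854 (0.802 to 0.909) and 0.819 (0.778 to 0.862). Relative to all genes the log2 ratios were -0.03 and -0.14, so little of the HepG2 difference was left beyond the median gene, and about as much of the PLC/PRF/5 difference lay beyond that gene's -0.13 as within it. The lines differed by 0.06 (-0.06 to 0.18), an interval that includes 0 as deposited. On log2(FPKM + 1) the difference was also 0.06, but 0.14 under median-of-ratios scaling and 0.13 with nuclear totals, so it depended on the scaling. CLDN1 stood at 3.87 times the OCLN level in treated HepG2 and 7.78 times in control HepG2, and at 22.9 times in treated PLC/PRF/5 and 31.2 times in control PLC/PRF/5.

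Both cadherins were far higher in PLC/PRF/5 than in HepG2. CDH1 (chromosome 16, 68737225 to 68835548, plus strand) had 1.29 FPKM in treated HepG2 and 1.55 FPKM in control HepG2, and 9.26 FPKM in treated PLC/PRF/5 and 10.4 FPKM in control PLC/PRF/5. The treated libraries were slightly below their controls, at ratios of 0.832 (0.664 to 1.04) in HepG2 and 0.887 (0.816 to 0.964) in PLC/PRF/5. Relative to all genes the log2 ratios were 0.02 and -0.03, so CDH1 stayed close to the median gene in both lines. The difference between the lines was -0.09 (-0.43 to 0.25). An antisense gene that shares 5.62% of the CDH1 exon length, AC099314.1, had no row in the table.

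CDH2 (chromosome 18, 27950966 to 28177446, minus strand) had 1.46 FPKM in treated HepG2 and 2.08 FPKM in control HepG2, and 17.2 FPKM in treated PLC/PRF/5 and 28.8 FPKM in control PLC/PRF/5. Treated cells were lower in both lines, at ratios of 0.704 (0.557 to 0.890, 138 and 161 fragments) and 0.595 (0.558 to 0.635, 1351 and 2858 fragments). The log2 ratios were -0.32 and -0.72, and -0.15 and -0.59 relative to all genes. The difference between the lines on the plain log2 scale was 0.24 (-0.10 to 0.58) and includes 0, since the HepG2 counts were small. The antisense gene AC110015.1, which shares 2.75% of the CDH2 exon length, had at most 0.850 FPKM in any library.

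The balance of the pair differed between libraries. CDH1 stood at 0.880 times the CDH2 level in treated HepG2 and 0.745 times in control HepG2, and at 0.540 times in treated PLC/PRF/5 and 0.362 times in control PLC/PRF/5. Over the 18 cadherins with a row, CDH2 made up 55.1% of the summed level in treated PLC/PRF/5 and 62.9% in control PLC/PRF/5, and CDH1 29.7% and 22.8%. In HepG2 the sum was only 5.33 FPKM in treated and 7.27 FPKM in control cells, and the kidney cadherin gene CDH16 made up 25.4% and 31.2% of it, beside 27.5% and 28.6% for CDH2 and 24.2% and 21.3% for CDH1.

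**Figure D3:**
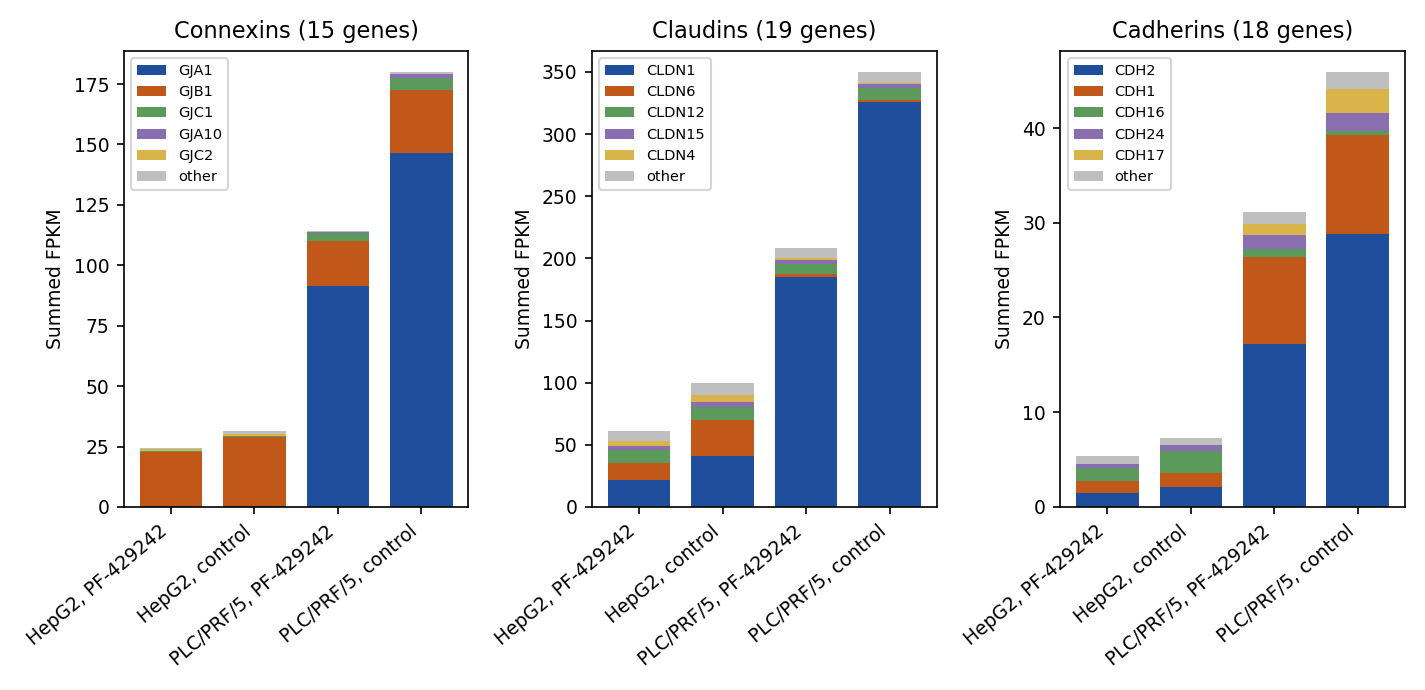
Summed FPKM of the connexins, claudins and cadherins in each library, treated left of control within each line, with the 5 genes of highest total in colour and all others in grey. GJA1, CLDN1 and CDH2 fill most of the PLC/PRF/5 bars, and GJB1 most of the HepG2 connexin bars.

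Between the untreated lines, 4 of the 8 members with at least 1 FPKM in either control were 2-fold or more lower in HepG2 than in PLC/PRF/5 on log2(FPKM + 1), and 0 were higher. On the plain ratio CLDN2 was also past 2-fold, in the other direction. The background was 13.1% of 13861 genes lower and 10.0% higher, 23.1% in all, and 11.7% and 8.42% of the 11000 protein-coding genes. The members were GJA1, CDH2 with a ratio of 0.0720 (0.0611 to 0.0845), CLDN1 with 0.127 (0.122 to 0.132) and CDH1 with 0.148 (0.125 to 0.175). OCLN, at 0.510 (0.463 to 0.561), and TJP1, at 0.665 (0.629 to 0.702), were lower too, whereas CLDN2, at 2.06 (1.47 to 2.90), and GJB1, at 1.11 (1.03 to 1.20), were higher in HepG2. GJB2 and CLDN14 did not differ detectably, at 1.02 (0.496 to 2.08) and 1.19 (0.514 to 2.72). At 1.5-fold, 5 members were lower and 0 higher, against 23.7% and 19.8% of all genes (43.5% in both directions). The members' median log2 ratio was -1.51, against -0.06 for all genes.

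The order of the members by level also set the lines apart. In treated HepG2 it began with GJB1 and CLDN1, whose counting intervals overlapped, followed by TJP1 and OCLN. In control HepG2 it began with CLDN1, followed by GJB1, TJP1 and OCLN, with no overlap among them. CLDN2, CDH2 and CDH1 came next in both HepG2 libraries, with intervals that overlapped from neighbour to neighbour, and GJB2 and CLDN14 overlapped below them. In both PLC/PRF/5 libraries CLDN1 and GJA1 led. GJB1 and CDH2 overlapped in treated PLC/PRF/5 but not in its control, where CDH2 was higher. CDH1 and OCLN overlapped in control PLC/PRF/5 only, and CLDN2, GJB2 and CLDN14 were last in both.

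The other genes of these junctions were taken from 7 lists of 113 genes with a row. In HepG2, 0 of the 56 with at least 1 FPKM were 2-fold lower or higher, and at 1.5-fold 3 were lower and 0 higher. All 56 were below 0, as were 82.4% of all genes, with a median log2 ratio of -0.21, close to that of all genes. Under median-of-ratios scaling, which puts the median gene near 0, 33 of the 56 were below 0, and 49.9% of all genes. In PLC/PRF/5, 0 of 65 were 2-fold lower and 1 was higher, and 2 were lower and 2 higher at 1.5-fold. There 45 of 65 were below 0, as were 70.9% of all genes, and the median was -0.17. The shares of all genes past 2-fold and 1.5-fold in each line, given above for the members, are the background of these counts.

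The genes past 1.5-fold were CLDN6, CLDN19 and VCL in HepG2, and CDH17, VCL, CLDN11 and EPCAM in PLC/PRF/5. CLDN6 had a log2 ratio of -0.94 in HepG2 and -0.09 in PLC/PRF/5, and CLDN19, a kidney claudin, -0.63 in HepG2. CLDN11, which seals the myelin sheath and the testis barrier, was the gene 2-fold higher in treated PLC/PRF/5, with 2.26 FPKM in treated and 0.614 FPKM in control cells. Of the cadherins, the intestine-type CDH17 had 1.06 FPKM in treated PLC/PRF/5 and 2.53 FPKM in control PLC/PRF/5, a log2 ratio of -0.78, and at most 2 fragments in HepG2. Among connexins, 2 other than members had at least 1 FPKM in PLC/PRF/5, GJC1 (connexin 45) with log2 ratios of -0.34 in HepG2, where it was below 1 FPKM, and -0.54 in PLC/PRF/5, and GJA10 with -0.50 in PLC/PRF/5 and 0 fragments in HepG2. The large-pore channel gene PANX1 had log2 ratios of -0.13 in HepG2 and -0.01 in PLC/PRF/5, and its relative PANX2 -0.11 and 0.42. CLDND1 had -0.14 and -0.39, and CDH24 -0.21 and -0.18. CDH19, with 0 fragments in HepG2, had -0.30 in PLC/PRF/5.

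Scaffolds of the tight junction differed little. None of 18 measured in each line passed 1.5-fold, with medians of -0.19 in HepG2 and -0.12 in PLC/PRF/5. CXADR, the coxsackievirus receptor, had -0.37 and -0.21, F11R (junctional adhesion molecule A) -0.50 and -0.20, LSR of tricellular contacts -0.04 and -0.18, and the polarity kinase gene PRKCI -0.27 and -0.29. Cingulin (CGN), a cytoplasmic tight junction protein, had 0.17 in HepG2, where both libraries were below 1 FPKM, and -0.50 in PLC/PRF/5. Its log2 ratio of control HepG2 over control PLC/PRF/5 was -3.01, and the plain ratio was 0.0493 (0.0378 to 0.0633), on 64 fragments in control HepG2.

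Of the adherens junction partners, 13 were measured in each line, and vinculin (VCL), which links catenins to actin under tension, alone passed 1.5-fold. Of all genes 7.87% passed in HepG2 and 9.32% in PLC/PRF/5. VCL had 5.22 FPKM in treated HepG2 and 9.47 FPKM in control HepG2, and 23.3 FPKM in treated PLC/PRF/5 and 38.0 FPKM in control PLC/PRF/5. Its ratios of 0.551 (0.509 to 0.596) and 0.614 (0.591 to 0.638) lay near those of CLDN1. The catenin gene CTNND1, which stabilises cadherins at the membrane, had log2 ratios of -0.40 and -0.29, JUP (plakoglobin) -0.50 and -0.40, CTNNAL1 -0.32 and -0.11, NECTIN2 -0.27 and -0.46, and NECTIN4 -0.52 and 0.12. Of the desmosome genes, 0 of 7 in HepG2 and 0 of 8 in PLC/PRF/5 passed 1.5-fold, against the same shares of all genes. Desmoplakin (DSP) had -0.11 and 0.20, DSG2 -0.44 and -0.30, PERP -0.14 and -0.22, PKP2 -0.50 and -0.22, DSC2 -0.19 and -0.50, and PKP3 -0.04 and 0.56.

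Regulators and epithelial markers had a median log2 ratio of -0.14 in HepG2, with EPCAM at -0.30. There 0 of 7 passed 1.5-fold, against 7.87% of all genes. In PLC/PRF/5 1 of 9 passed, against 9.32% of all genes. That gene was EPCAM, an epithelial adhesion molecule, which had 16.9 FPKM in treated PLC/PRF/5 and 10.1 FPKM in control PLC/PRF/5, and 41.0 FPKM in treated HepG2 and 50.6 FPKM in control HepG2. The hepatocyte factor HNF4A had log2 ratios of -0.11 and -0.04, the epithelial splicing factor ESRP2 -0.14 and 0.02, and GRHL1 -0.16 and 0.15. The mesenchymal filament gene VIM had 7.35 FPKM in treated PLC/PRF/5 and 10.5 FPKM in control PLC/PRF/5, and at most 0.0190 FPKM in HepG2.

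**Figure D4:**
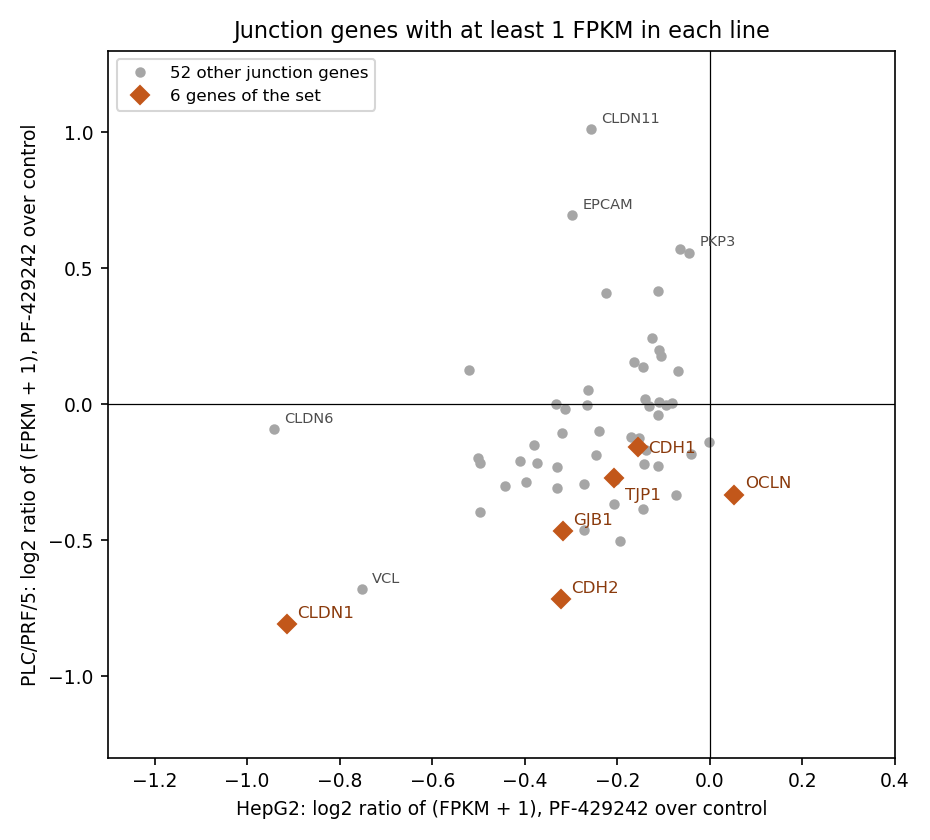
Log2 ratio of (FPKM + 1), PF-429242 over control, in HepG2 (horizontal) and PLC/PRF/5 (vertical) for junction genes that reached 1 FPKM in both lines, treated or control, 6 of the set as diamonds and 52 others as grey points. CLDN1 and VCL lie at the lower left, CLDN6 is low in HepG2 alone, and CLDN11 and EPCAM lie above 0 in PLC/PRF/5 only.

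For the 6 members with at least 1 FPKM in every library, the gene of most similar pattern was sought among 9060 protein-coding genes by Euclidean distance of centred log2(FPKM + 1) over the 4 libraries, and it is given for 5 of them. It was VTN (vitronectin) for CLDN1, at a distance of 0.340, PPP2R1B for CDH2 (0.119), ZNF830 for GJB1 (0.0326), FAM86C1 for OCLN (0.0236) and CASK for TJP1 (0.00711). With 4 points per gene, small distances are common where a gene varies little.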

How the data were processed

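RNA of 4 cultures was sequenced. The deposited values were FPKM made by the authors from reads aligned with TopHat2 to GRCh38, per the submitters' processing notes; TopHat2's version, the counter, the annotation and the strand setting have no mention in the labels. Symbols, positions and exon lengths came from GENCODE 29, which held 32354 of 32479 identifiers. Whole fragments were recovered from FPKM: 24452 genes (75.3%) gave whole numbers in all libraries within 0.001 at their GENCODE length, and 7450 by ratios between libraries, which give the smallest solution. Of the members, GJB2, CLDN1, CLDN14, CDH1 and CDH2 were of the second kind, and their implied lengths were 4634 to 6103 bases for the cadherins and 2474 to 3628 bases for the others, close to those annotated. The recovery, the intervals and the scaling were tested on simulated data.

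Ratios were taken from the deposited FPKM, with 95% Clopper-Pearson intervals of the 2 fragment counts (scipy 1.17.1). These and the limit of 3 fragments for a count of 0 cover counting error only. Intervals of line differences used the normal approximation of log counts. Genes were counted on log2(FPKM + 1) at 2-fold and 1.5-fold, with at least 1 FPKM in either library of a pair. Each group held 1 library, so no test was made. The members and lists were chosen with earlier results of these data known. From each list, up to 3 genes of highest mean level and up to 3 with the largest log2 ratio in either line are named. MAGI1, CLDN4, AC099314.1, AC110015.1, RIPPLY1, MT-RNR2, MT-CO1 and the RRP genes were named after their values were seen. Alternatives were pseudocounts of 0.1 and 5, no filter or 5 FPKM, 1.5-fold, equal sums (TPM scale), median-of-ratios scaling and totals over nuclear genes. A plain ratio with at least 20 fragments, the 1.5-fold and below-0 counts under each scaling, and the scaled intervals of opposite ratios were added after seeing the data. Protein sequences were not used here. The gene of most similar pattern to CDH1 is not reported here.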

Additional observations from a re-analysis of the deposited data

Results flagged for a closer look

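As deposited, 56 junction genes had at least 1 FPKM and recovered fragments in both lines. Of these, 4 had ratios on opposite sides of 1 in the lines, with counting intervals that both left out 1. The share of all genes that meet this rule was not computed, so the count is not a result about junction genes. None of the 4 is a member as deposited, and scaled intervals were made for these 4 genes only. The member OCLN had log2 ratios of (FPKM + 1) of 0.05 in HepG2 and -0.33 in PLC/PRF/5. Under median-of-ratios scaling they were 0.23 and -0.22, and with nuclear totals also 0.23 and -0.22. With 1 library per group the difference between the lines was not tested over samples, and the intervals cover counting error only. For CLDN11 the ratio was 0.783 in HepG2 (0.636 to 0.964) and 3.68 in PLC/PRF/5 (2.64 to 5.19), a HepG2 minus PLC/PRF/5 difference in log2 of -2.23. For CLDN4 it was 0.830 (0.723 to 0.951) and 1.81 (1.32 to 2.51), a difference of -1.13. EPCAM had 0.810 (0.762 to 0.861) and 1.68 (1.50 to 1.88), a difference of -1.05. MAGI1, a scaffold of tight and adherens junctions, had 0.907 (0.847 to 0.972) and 1.22 (1.13 to 1.32), a difference of -0.43. Under median-of-ratios scaling the HepG2 ratios of CLDN11, 0.909 (0.738 to 1.12), and CLDN4, 0.963, have intervals that include 1, as they do with nuclear totals, so EPCAM alone of the 4 kept both intervals clear of 1 under every scaling tried, with an upper HepG2 bound of 0.999. The log2 ratio of MAGI1 in HepG2, -0.12, was 0.07 under median-of-ratios scaling, and in PLC/PRF/5, 0.24, was -0.04 on the TPM scale.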

How the results depend on the processing

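Each group held 1 library, so no library could be left out. No paired analysis was possible because each group held 1 library and the labels number no replicates. Of 200 member values under the alternatives, 156 were classed as within the counting interval, 44 moved beyond it and 9 changed sign. GJA1 had 0 fragments in HepG2, so its values that involve HepG2 had no full interval, and they are among the 156. Line differences are here on log2(FPKM + 1), not on the plain scale. The sign changed for CLDN2 and CLDN14 in HepG2 (median-of-ratios and nuclear totals), OCLN in HepG2 (-0.25 on the TPM scale), and GJB2 between the controls and in its line difference (nuclear totals). It also changed for the line difference of CDH1, 0.0018 as deposited, -0.076 with a pseudocount of 0.1 and -0.0016 with nuclear totals. None of the member values past 2-fold changed sign. In HepG2, 0 members were past 2-fold; the count was 1 at 1.5-fold, 1 on the TPM scale (CLDN1) and 1 by plain ratio with at least 20 fragments (GJB2). In PLC/PRF/5 it was 0, and 3 at 1.5-fold, 3 on the TPM scale (CLDN1, CDH2 and GJA1) and 2 by plain ratio (CLDN2 and GJB2). At 1.5-fold it was 3 of 7 on the TPM scale and 1 under the other scalings in HepG2, and 6 of 7 on the TPM scale and 2 under the other scalings, without GJA1, in PLC/PRF/5. All of these were lower. On the TPM scale 4128 of 12347 genes were 1.5-fold lower and 239 higher in HepG2, and 3777 of 13144 were lower and 440 higher in PLC/PRF/5. Under median-of-ratios scaling 458 were lower and 407 higher in HepG2, and 478 and 684 in PLC/PRF/5. With nuclear totals these were 514 and 437, and 554 and 813. At 2-fold on the TPM scale 681 were lower and 135 higher in HepG2, and 613 and 212 in PLC/PRF/5. Between the controls it was 4, 5 at 1.5-fold (all lower in HepG2) and 5 by plain ratio (4 lower, and CLDN2 higher). At 1.5-fold, 5 members were lower and 1 higher on the TPM scale, and 6 lower and 0 higher with nuclear totals. Of 13861 genes, 2946 were lower and 4089 higher on the TPM scale, and 3774 and 2610 with nuclear totals. For the other junction genes in HepG2 the count was 0, and 3 at 1.5-fold, 3 on the TPM scale and 3 by plain ratio. In PLC/PRF/5 it was 1, and 4 with a pseudocount of 0.1, 0 with 5, 0 at 5 FPKM or more, 4 at 1.5-fold, 4 on the TPM scale and 8 by plain ratio. Between the controls it was 20 of 69, against 23.1% of all genes, and 34 of 69 at 1.5-fold, against 43.5%. It was 31 with a pseudocount of 0.1, 6 with 5, 10 of 40 at 5 FPKM or more and 41 of 78 by plain ratio, settings for which no share of all genes was computed. Of the 20, 9 were higher in HepG2, and 16 of 29 on the TPM scale. Among all genes past 2-fold between the controls, 43.4% were higher in HepG2 as deposited and 55.3% on the TPM scale. The median log2 ratio of all genes was -0.50 in HepG2 and -0.45 in PLC/PRF/5 on the TPM scale, and 0.00 and -0.03 under median-of-ratios scaling. Among all genes past 2-fold, higher ones made up 32.0% and 44.8% in these lines as deposited, 16.5% and 25.7% on the TPM scale and 41.1% and 53.6% under median-of-ratios scaling. CLDN1 stayed below 0 under every alternative, between -1.26 and -0.71 in HepG2 and between -1.15 and -0.68 in PLC/PRF/5.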
